A study of Mus musculus with 4 samples.

Results

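The genes described are 10 transcriptional regulators that receptor signals switch on in T cells: the zinc finger factors Egr1, Egr2 and Egr3, their corepressor Nab2, the orphan nuclear receptors Nr4a1, Nr4a2 and Nr4a3, the HMG-box factors Tox and Tox2, and the repressor Prdm1. They were taken by symbol from the 50600 genes in the deposited count tables, and all 10 matched 1 gene each. The samples were 4 RNA-seq libraries of mouse T-helper 17 (Th17) cells, CD4 T cells that make interleukin-17. They were primary cells of strain C57BL/6NJ for which the labels link a CD4 T-cell differentiation protocol, with age given as unknown and sex as not collected. The labels do not give the time since stimulation, on which levels of early response genes depend, and a tag in hours in the file headers is not explained there. All 4 libraries, called here replicates 1 to 4 after the biological replicate numbers in the labels, form 1 group, and no other condition was measured.

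When a T-cell receptor binds its antigen, a kinase cascade through Ras and ERK and a calcium signal through calcineurin and NFAT reach the nucleus within minutes. Early response genes such as Egr1 and Nr4a1 are transcribed without new protein synthesis. Egr2 and Egr3 then restrain the response in mouse T cells, the NAB proteins bind EGR factors and repress their targets, and NR4A and TOX factors are known from T cells that stay unresponsive or exhausted under lasting stimulation. Prdm1 encodes Blimp-1, which promotes effector differentiation and represses Il2.

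Library totals ran from 24696730 fragments in replicate 2 to 37025016 in replicate 1. Among the fixed markers of CD4 T and Th17 cells, 7 of 7 reached 1 TPM in each of the libraries, and their summed level ran from 2557 to 2718 TPM. TPM (transcripts per 1000000) divides each count by the gene's exon length and brings every library to an equal sum. Summed levels ran from 14.8 to 22.7 TPM for 5 CD8 and cytotoxic markers, from 0.280 to 0.893 TPM for 4 B-cell markers, from 3.98 to 6.38 TPM for 6 myeloid markers and from 4.17 to 5.93 TPM for 4 markers of red cells, epithelium, endothelium and stroma. Ms4a1, Lyz2 and Hba-a1 had no fragment in any library. Chi-square over its degrees of freedom lay between 3.41 and 7.95 for the pairs of libraries, so none agreed within sampling noise, and each was counted as 1 sample. The ratio was lowest between replicates 1 and 2 (3.41) and between replicates 3 and 4 (3.66). Across these pairs it lay between 6.39 and 7.95. One donor identifier covers all 4 biosamples in the labels, with nothing on whether separate animals were used. The p-values thus measure the spread between these 4 libraries, part of which may be technical. Replicates 1 and 2 stand apart from 3 and 4 in sex-linked RNA, with Xist at 186 and 161 TPM in replicates 1 and 2 and at 0.687 and 0.721 TPM in replicates 3 and 4. The Y-linked gene Ddx3y ran the other way, at 0.442 and 0.446 TPM in replicates 1 and 2 and at 88.6 and 83.2 TPM in replicates 3 and 4. By these genes the pairs differ in the sex of the cells, so the 4 libraries did not all come from 1 animal. Whether the libraries of a pair share an animal is not given, so the independent units may be fewer than 4. The tests below took the 4 libraries as 1 group and did not model the pairs, so the spreads given include any difference between the pairs. Of the 10 regulators, 1 (Egr3) had values in replicates 3 and 4 that did not overlap those in 1 and 2, and over all genes tested for variability 35.0% did not.

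Of the regulators, 7 have entries among the RefSeq promoter windows used here (build GRCm38.p6, the same assembly as mm10), and Egr1, Egr3 and Tox do not. The bases shown lie upstream of annotated starts of the NR4A genes and of Egr2, the highest member. They are shown because the early response of these families is classically tied to sites for CREB, which binds the cyclic AMP response element (CRE), and for serum response factor, which binds the CArG box. Capitals mark the CRE half-site, TGACG on either strand, and the CArG box.
Nr4a1, chr15:101266596-101266845, plus strand: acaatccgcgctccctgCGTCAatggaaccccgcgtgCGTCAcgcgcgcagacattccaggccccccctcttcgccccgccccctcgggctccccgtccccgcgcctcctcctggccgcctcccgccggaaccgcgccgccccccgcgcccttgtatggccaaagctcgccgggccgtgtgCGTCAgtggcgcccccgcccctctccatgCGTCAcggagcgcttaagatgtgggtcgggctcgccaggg
Nr4a2, chr2:57124004-57124253, minus strand: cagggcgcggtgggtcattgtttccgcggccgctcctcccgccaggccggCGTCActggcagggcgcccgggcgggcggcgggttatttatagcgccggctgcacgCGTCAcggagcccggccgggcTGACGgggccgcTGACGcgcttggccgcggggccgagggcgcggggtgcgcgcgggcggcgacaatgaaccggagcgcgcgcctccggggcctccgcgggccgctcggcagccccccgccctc
Nr4a3, chr4:48045055-48045152, plus strand: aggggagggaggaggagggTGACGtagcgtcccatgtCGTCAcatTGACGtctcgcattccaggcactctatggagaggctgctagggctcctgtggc
Egr2, chr10:67537619-67537868, plus strand: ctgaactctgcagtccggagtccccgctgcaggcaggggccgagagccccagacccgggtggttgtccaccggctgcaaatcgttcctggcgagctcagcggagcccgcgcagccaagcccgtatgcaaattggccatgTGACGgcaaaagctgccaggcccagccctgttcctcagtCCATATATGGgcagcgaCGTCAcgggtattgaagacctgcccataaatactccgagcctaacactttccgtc

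In the 250 bases before the RefSeq start, Nr4a1, Nr4a2 and Nr4a3 each held 4 CRE half-sites. The Nr4a3 stretch printed stops just before the first exon base of the GENCODE M21 annotation and shows 3 of its 4. The other half-site lies upstream of the RefSeq start but inside that annotated exon. Of 32817 mouse promoter windows of that length, 17.7% held at least 1 half-site and 0.137% held at least 4. The Egr2 window shown held 2 half-sites and 1 CArG box, and 1.47% of windows hold a CArG box. Egr2 has 5 windows, and one with the most matches was taken, a choice for which that share per window does not allow. Of the 5, 3 overlapping ones hold these same matches, and the one with no annotated exon base is shown. Another window holds a different CArG box and no half-site, and the window of the first start holds neither. The Egr2 start shown lies inside the span of the gene given below. Nr4a1 and Nr4a2 each held 1 EGR site (GCGNGGGCG on either strand, found in 4.70% of windows), at 60 to 52 and 74 to 66 bases before the start. No full CRE (TGACGTCA, which would count as 2 overlapping half-sites) and no NR4A monomer site (AAAGGTCA on either strand) was present in the windows of any of the 7 genes. These are matches of letters in a short window, and no binding was measured.

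**Figure D1:**
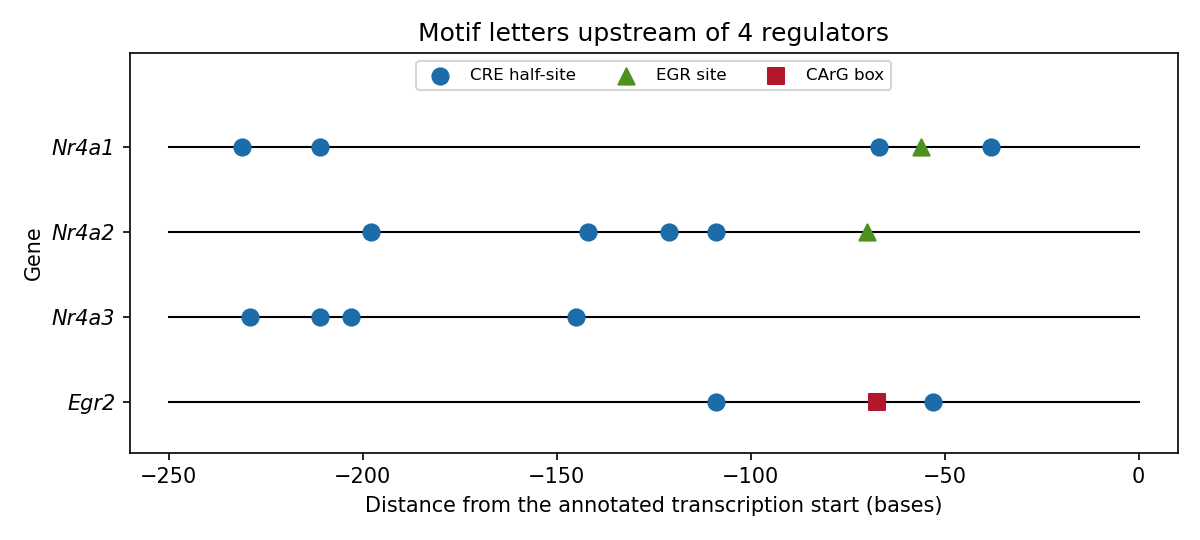
Matches to 3 motifs in the 250 bases upstream of an annotated RefSeq start of Nr4a1, Nr4a2, Nr4a3 and Egr2 (for Egr2, a window with the most matches). The x axis is the distance from the start in bases. Circles are CRE half-sites, triangles EGR sites and the square a CArG box. Each NR4A gene has 4 circles and Egr2 has 2, with the CArG box between them.

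Egr2 was the most abundant of the regulators and Prdm1 the least. In every library, 9 of the 10 reached 1 TPM, 7 reached 10 TPM and 2 (Egr2 and Nr4a1) reached 100 TPM. Among all protein-coding genes the shares were 44.8%, 33.9% and 8.72%, and among all genes listed they were 22.1%, 15.3% and 3.84%. The members were picked as known T-cell regulators, so their shares are a description. Bulk RNA does not tell fewer expressing cells from less RNA per cell, here or in any level below.

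**Figure D2:**
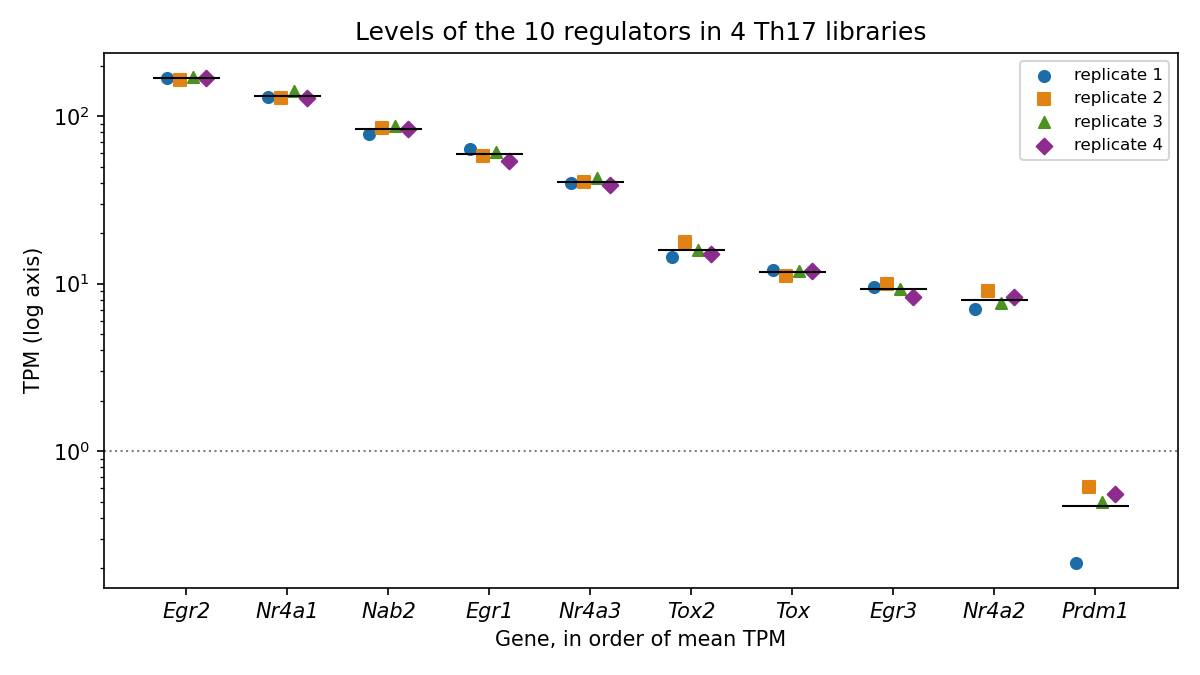
Level in TPM (log axis) of the 10 regulators in each of 4 Th17 libraries, in order of the mean over libraries (black line); the dotted line marks 1 TPM. The 4 values of a gene lie close together except for Prdm1, at 0.214 TPM in replicate 1 and 0.5004 to 0.611 TPM in the other libraries.

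The EGR family was made up mainly of Egr2. Egr2 (ENSMUSG00000037868.15, mm10 chromosome 10, 67535475 to 67542188, plus strand), known in T cells for its part in anergy, was at 170, 164, 171 and 168 TPM in replicates 1 to 4, a mean of 168 ± 2.91 TPM (SD, n = 4, as for all values with ±). Egr1 (ENSMUSG00000038418.7, chromosome 18, 34859823 to 34864984, plus strand), the classical immediate early member, was at 63.5, 57.7, 61.02 and 54.3 TPM. Egr3 (ENSMUSG00000033730.3, chromosome 14, 70077445 to 70080157, plus strand), which acts redundantly with Egr2 in mouse T cells, was at 9.54, 10.02, 9.35 and 8.35 TPM. The ranges of the 3 genes did not overlap, and their order was the same in 4 of 4 libraries. Egr4, the remaining paralogue, had 2, 2, 5 and 4 fragments in replicates 1 to 4, 13 in all, and a mean of 0.156 ± 0.0663 TPM. Replicates 1 and 2 were under the floor of 3 fragments (0.191 TPM in replicate 2), and replicates 3 and 4 just above it. Of the TPM summed over Egr1 to Egr4, Egr2 held 71.1% ± 1.25, Egr1 24.9% ± 1.11, Egr3 3.93% ± 0.292 and Egr4 0.0659% ± 0.0275.

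On the log2(TPM + 1) scale, Egr2 was at 7.40, Egr1 at 5.91 and Egr3 at 3.36 on average. Egr2 exceeded Egr1 by 1.496 ± 0.09 and Egr3 by 4.04 ± 0.11, and Egr3 minus Egr1 was -2.54 ± 0.09, each in the same direction in 4 of 4 libraries. An exact two-sided sign-flip test gave p = 0.13 for each of the 10 pairs of genes compared in this way, and 0.13 after Benjamini-Hochberg adjustment over the 10. With 4 libraries the test cannot give a smaller p (rounded here), so none of these pairs could have passed 0.05. The Egr3 model behind the deposited counts covered 1416 exon bases, against 4406 in the later GENCODE M21 annotation, so fragments from the other exon bases were not counted. What that does to the level of Egr3 was not tested. By fragments alone, with no length, Egr3 made up 1.55% ± 0.116 of the EGR family.

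Nab2 (ENSMUSG00000025402.12, chromosome 10, 127660918 to 127668568, minus strand), which EGR factors themselves induce and which represses their targets, was at 78.4, 85.2, 87.3 and 83.9 TPM, a mean of 83.7 ± 3.799 TPM. It was lowest in replicate 1. Its paralogue Nab1 was highest in that library, at 46.7 TPM in replicate 1, 35.2 in replicate 2, 40.6 in replicate 3 and 40.1 in replicate 4. The mean log2(TPM + 1) was 6.40 for Nab2 and 5.37 for Nab1, a difference of 1.03 ± 0.22 that ran from 0.73 in replicate 1 to 1.25 in replicate 2. The summed level of the EGR genes was 237 ± 6.17 TPM and that of the NAB genes 124 ± 3.10 TPM, an EGR over NAB ratio of 1.91 ± 0.0358. Chd4, the remodelling enzyme that binds Nab2, was at 401 ± 4.11 TPM. Nab2 exons overlap those of Stat6 by 40 bases, of Nemp1 by 151 and of the noncoding gene Gm16229 by 1050, all on the opposite strand, which the reverse-strand counting keeps apart.

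The NR4A family was led by Nr4a1. Nr4a1 (ENSMUSG00000023034.6, chromosome 15, 101266846 to 101274792, plus strand) encodes Nur77, whose level is widely used as a readout of receptor signalling, and was at 130, 128, 142 and 129 TPM. Replicate 3 was the highest, and the other libraries lay close together. Nr4a3 (ENSMUSG00000028341.9, chromosome 4, 48045153 to 48086447, plus strand), encoding Nor1, was at 39.7, 40.6, 42.9 and 38.9 TPM, again with the highest value in replicate 3. Nr4a2 (ENSMUSG00000026826.13, chromosome 2, 57106830 to 57124003, minus strand), encoding Nurr1, was at 7.06, 9.01, 7.67 and 8.36 TPM, with its lowest value in replicate 1. The ranges of the 3 genes did not overlap.

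Of the summed NR4A level of 180.5 ± 7.75 TPM, Nr4a1 held 73.1% ± 0.754, Nr4a3 22.5% ± 0.328 and Nr4a2 4.45% ± 0.547. Mean log2(TPM + 1) was 7.05 for Nr4a1, 5.38 for Nr4a3 and 3.17 for Nr4a2. Nr4a1 exceeded Nr4a3 by 1.68 ± 0.03 and Nr4a2 by 3.88 ± 0.17, and Nr4a3 exceeded Nr4a2 by 2.21 ± 0.15, in 4 of 4 libraries each (exact sign-flip p = 0.13). Nr4a1 and Nr4a2 both carry 4 CRE half-sites in the windows shown above, beside levels that differ 16.4-fold. By fragments alone, Nr4a1 held 54.3% ± 0.831 and Nr4a3 40.3% ± 0.413 of the family, since the Nr4a3 model is longer, at 5987 against 2474 exon bases. The Nr4a1 model in M21 has 3509 exon bases. The nuclear receptors that pair with Nr4a1 and Nr4a2 were Rxrb at 83.9 ± 2.11 TPM and Rxra at 19.03 ± 1.46 TPM.

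**Figure D3:**
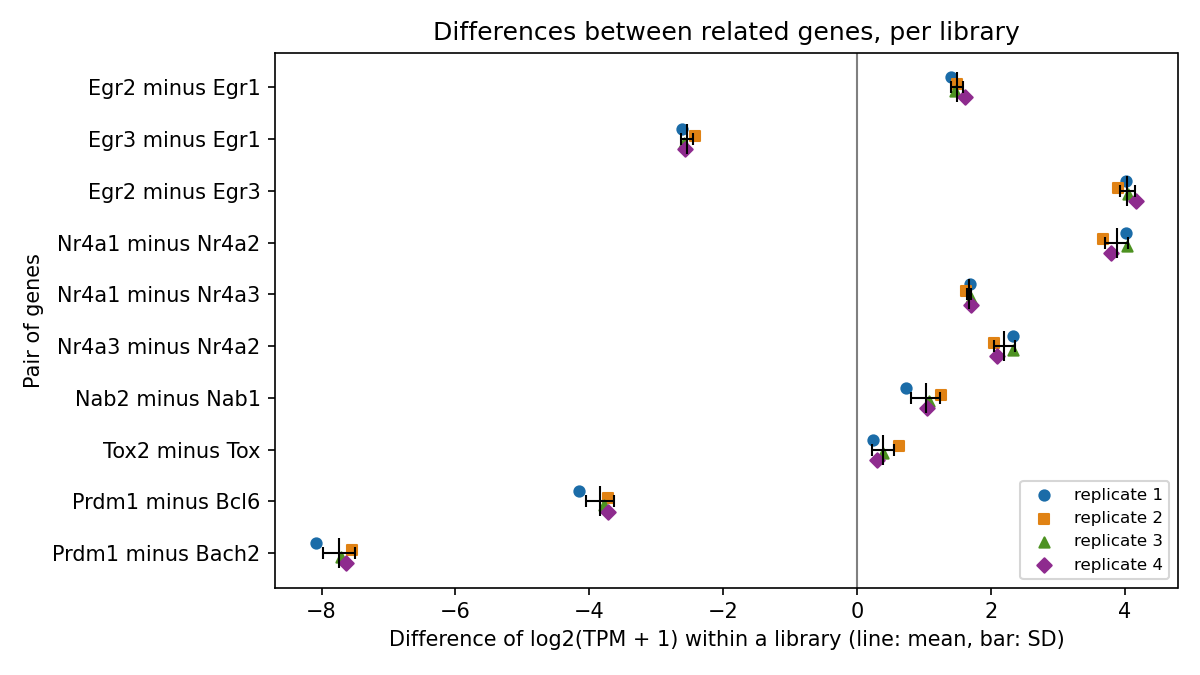
Difference of log2(TPM + 1) between the first and the second gene of 10 pairs, in each of 4 libraries (points), with the mean (vertical tick) and the SD (bar); 0 means equal levels. Every pair has the same direction in all 4 libraries, and Tox2 minus Tox, at 0.39 ± 0.17, lies nearest to 0.

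The TOX members were modest. Tox2 (ENSMUSG00000074607.11, chromosome 2, 163203125 to 163324170, plus strand), known from follicular helper T cells, was at 14.5, 17.7, 15.96 and 15.01 TPM. Tox (ENSMUSG00000041272.11, chromosome 4, 6686353 to 6991557, minus strand), which CD4 T cells need for their development in the thymus and which marks exhausted CD8 T cells, was at 12.1, 11.1, 11.9 and 11.99 TPM. Mean log2(TPM + 1) was 4.07 for Tox2 and 3.67 for Tox, a difference of 0.39 ± 0.17, with Tox2 higher in 4 of 4 libraries. This order holds per exon length only: the Tox model is longer, at 7609 against 3401 bases, and by fragments per 1000000 (CPM) Tox2 minus Tox was -0.71 on the log2(CPM + 1) scale. The paralogue Tox4, a broadly expressed nuclear protein, was at 113 ± 3.53 TPM and held 80.3% ± 0.797 of the family's TPM, while Tox3 had 4 fragments in all.

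Prdm1 was close to the limit of detection. Prdm1 (ENSMUSG00000038151.13, chromosome 10, 44437177 to 44528501, minus strand) had 13, 25, 27 and 34 fragments in replicates 1 to 4, or 0.214, 0.611, 0.5004 and 0.559 TPM. All 4 values lay above the floor of 0.0734 TPM, which stands for 3 fragments in replicate 2, the shallowest library. The exact Poisson 95% interval was 0.114 to 0.366 TPM in replicate 1, below the intervals of 0.396 to 0.903 TPM in replicate 2 and 0.387 to 0.781 TPM in replicate 4, and it overlapped 0.3298 to 0.728 TPM in replicate 3. Such intervals and floors cover counting error only. Its antagonists were higher. Bcl6, which Blimp-1 represses and which represses Prdm1 in turn, was at 19.97 ± 0.523 TPM, and Bach2, another repressor of Prdm1, at 311 ± 11.7 TPM. Mean log2(TPM + 1) was 0.55 for Prdm1, against 4.39 for Bcl6 and 8.29 for Bach2. Prdm1 minus Bcl6 was -3.84 ± 0.21 and Prdm1 minus Bach2 was -7.74 ± 0.24, negative in 4 of 4 libraries (exact sign-flip p = 0.13). The pseudocount of 1 holds these differences down, since Prdm1 itself is under 1 TPM.

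By mean TPM, the order ran Egr2, Nr4a1, Nab2, Egr1, Nr4a3, Tox2, Tox, Egr3, Nr4a2 and Prdm1. Neighbours in that order had ranges that did not overlap, apart from Egr3 and Nr4a2, whose ranges overlapped and of which Egr3 was higher in 3 of 4 libraries. The step from Nr4a2 to Prdm1 was the widest, at 17.03-fold, and that from Egr3 to Nr4a2 the narrowest, at 1.16-fold. With no length correction, Egr1 stood above Nab2 at 78.4 against 72.8 fragments per 1000000, Tox above Tox2 at 26.5 against 15.9, and Nr4a2 above Egr3 at 9.63 against 3.90. Among the 11170 genes at 1 TPM or more in every library, Egr2 lay at percentile 89.7, Nr4a1 at 86.1, Nab2 at 78.4, Egr1 at 70.5 and Nr4a3 at 61.05. Tox2, Tox, Egr3 and Nr4a2 lay between percentiles 24.7 and 38.3. The protein-coding genes whose levels came nearest to Egr2 over the 4 libraries were Pprc1 at 169 ± 2.67 TPM and Carm1 at 170 ± 2.56 TPM, with root mean square differences on the log2(TPM + 1) scale of 0.02 each.

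The spread between replicates was compared with that of other genes. All 10 passed the filter on low counts, and 0 of 10 had a spread between libraries above that of similarly abundant genes at an adjusted p under 0.05 (one-sided test on edgeR's quasi-likelihood dispersions), where 0.304% of the 11847 genes tested did. At an unadjusted p under 0.05, 1 of 10 did, against 5.69% of all genes tested, and by limma-trend the adjusted count was also 0. That gene was Prdm1, whose spread was 3.15 times the trend (unadjusted p = 0.0427, adjusted p = 0.837, edgeR). Without replicate 1, its spread was 0.206 times the trend (unadjusted p = 0.815, edgeR), and over 10 settings its unadjusted p ran between 0.0122 and 0.815. Egr1 followed at 2.76 times the trend (unadjusted p = 0.0634, adjusted p = 0.92, edgeR), with 63.5 TPM in replicate 1 and 54.3 TPM in replicate 4.

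Egr2 had the lowest spread over the trend of the 10 with all 4 libraries, but not with any 1 left out. The lowest was then Nab2 without replicate 1, Tox without replicate 2, Nr4a1 without replicate 3 and Egr3 without replicate 4. With all libraries, the Egr2 coefficient of variation of TPM was 1.73%, where counting alone would give 1.36%, and the spread was 0.154 times the trend. Tox varied by 3.78%, with 3.45% from counting, and Egr3 by 7.54%, with 8.94% from counting. Nr4a1 varied by 4.902% and Egr1 by 6.81%, with 1.80% and 2.00% from counting. Prdm1 varied by 37.6%, with 21.4% from counting, the most of the 10. Nr4a2 and Tox2 varied by 10.5% and 8.94%, with 5.69% and 4.42% from counting.

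**Figure D4:**
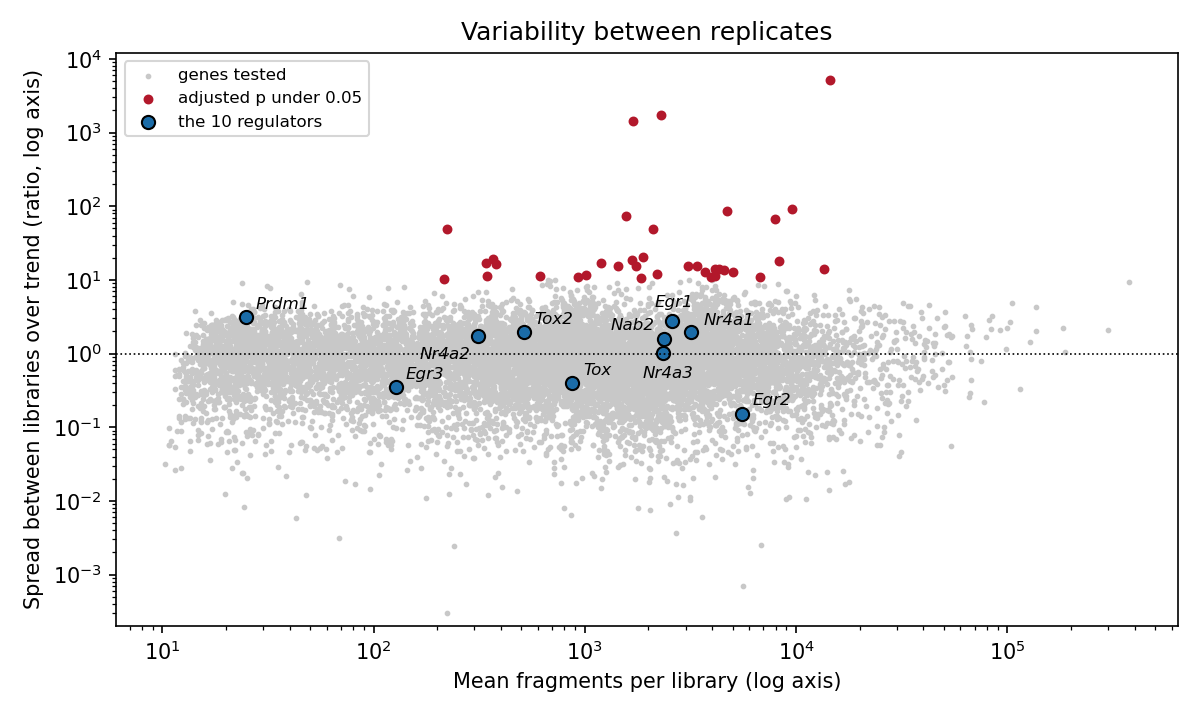
Spread between the 4 libraries over the fitted trend for genes of the same abundance (ratio, log axis) against the mean fragments per library (log axis) for 11847 genes in grey; genes with an adjusted p under 0.05 are red and the 10 regulators are blue with their names. None of the regulators is among the 36 red genes, and Prdm1 at 3.15 is the highest of them.

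Partner genes of these regulators were taken from 6 lists, and their levels are given beside the members. Across the genes tested for variability the median was 23.0 TPM, and across the 10 members 28.2 TPM. Of all genes tested, 65.3% reached 10 TPM in every library, 0.304% were called variable and 5.69% had an unadjusted p under 0.05 (edgeR). The shares at 10 TPM and the medians of the lists cover all their genes, also any that failed the filter on low counts. Of 10 paralogues and cofactors, 7 reached 10 TPM in every library, with a median of 30.3 TPM. Wt1, a zinc finger factor related to the EGR proteins, had no fragment, so that its level could be as high as 0.0661 TPM at the depth of replicate 2. In this list 7 genes were tested for variability, 0 were called and 1 had an unadjusted p under 0.05 by edgeR and by limma-trend alike. It was Nab1, whose spread was 5.51 times the trend (adjusted p = 0.427, edgeR).

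Of 22 genes of the kinase pathway and the early response, 18 reached 10 TPM in every library, with a median of 53.6 TPM. The others were all early response genes: Fos at a mean of 5.98 TPM, Atf3 at 3.04 TPM, Ier3 at 10.4 TPM (9.75 TPM in replicate 1) and Fosb. Myc was at 972 ± 13.4 TPM, the AP-1 factor Junb at 631 ± 35.1 TPM and the early response gene Ier2 at 363 ± 6.64 TPM. Fosb, an AP-1 gene that is switched on briefly after stimulation, was the lowest, at 0.495 ± 0.119 TPM. Of 22 tested for variability, 1 was called and 4 had an unadjusted p under 0.05, by edgeR and by limma-trend. The one called was the AP-1 gene Fosl2, at 53.0, 61.5, 51.9 and 49.4 TPM in replicates 1 to 4 (adjusted p = 0.0148, edgeR). Fosl2 was highest in replicate 2, and without it the adjusted p was 0.996, within a range of 1.49e-05 to 0.996 over all settings.

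Of 11 calcium, NFAT and MEF2 genes, 9 were at or above 10 TPM throughout, with a median of 62.4 TPM, and 0 of 10 tested were called variable, with 0 at an unadjusted p under 0.05 (edgeR and limma-trend). Hdac7, a deacetylase that holds Nr4a1 silent in thymocytes, was at 259 ± 11.5 TPM. The calcineurin subunit gene Ppp3r1 was at 158 ± 4.69 TPM and Nfatc1 at 83.7 ± 1.48 TPM. Mef2c had 4 fragments in all.

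Among genes tied to EGR factors in anergy and activation, 12 of 16 reached 10 TPM in every library, with a median of 41.1 TPM, and 0 of 13 tested were called variable by edgeR or limma-trend, with 3 and 4 at an unadjusted p under 0.05. Socs1, an inhibitor of cytokine signalling, was at 193 ± 11.4 TPM, the inhibitory receptor gene Lag3 at 174 ± 7.49 TPM and the activation marker Cd69 at 142 ± 12.2 TPM. Nrgn was the lowest, with 1 fragment in all.

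Inhibitory genes tied to NR4A and TOX factors were split. Of 12, 5 reached 10 TPM in every library, 3 of them above 100 TPM, and the median was 6.10 TPM. Ctla4 was at 2061 ± 85.2 TPM, Pdcd1, which encodes PD-1, at 420.2 ± 7.201 TPM and Btla at 269 ± 16.7 TPM, whereas Cd244a had 5 fragments in all. Of 9 tested, 0 were called variable and 3 had an unadjusted p under 0.05, by edgeR and by limma-trend.

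Of 10 genes in the Prdm1 circuit, 8 were at or above 10 TPM throughout, with a median of 293 TPM, and 0 of 10 tested were called variable, with 3 at an unadjusted p under 0.05 (edgeR and limma-trend). Irf4, which induces Prdm1 in other settings, was at 1647 ± 43.8 TPM, its partner Batf at 594 ± 7.16 TPM and Il2, which Blimp-1 represses, at 1615 ± 114 TPM. The high Irf4, Il2 and Bach2 levels stood beside a Prdm1 level under 1 TPM in the same 4 libraries, and whether these levels are linked was not tested.

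**Figure D5:**
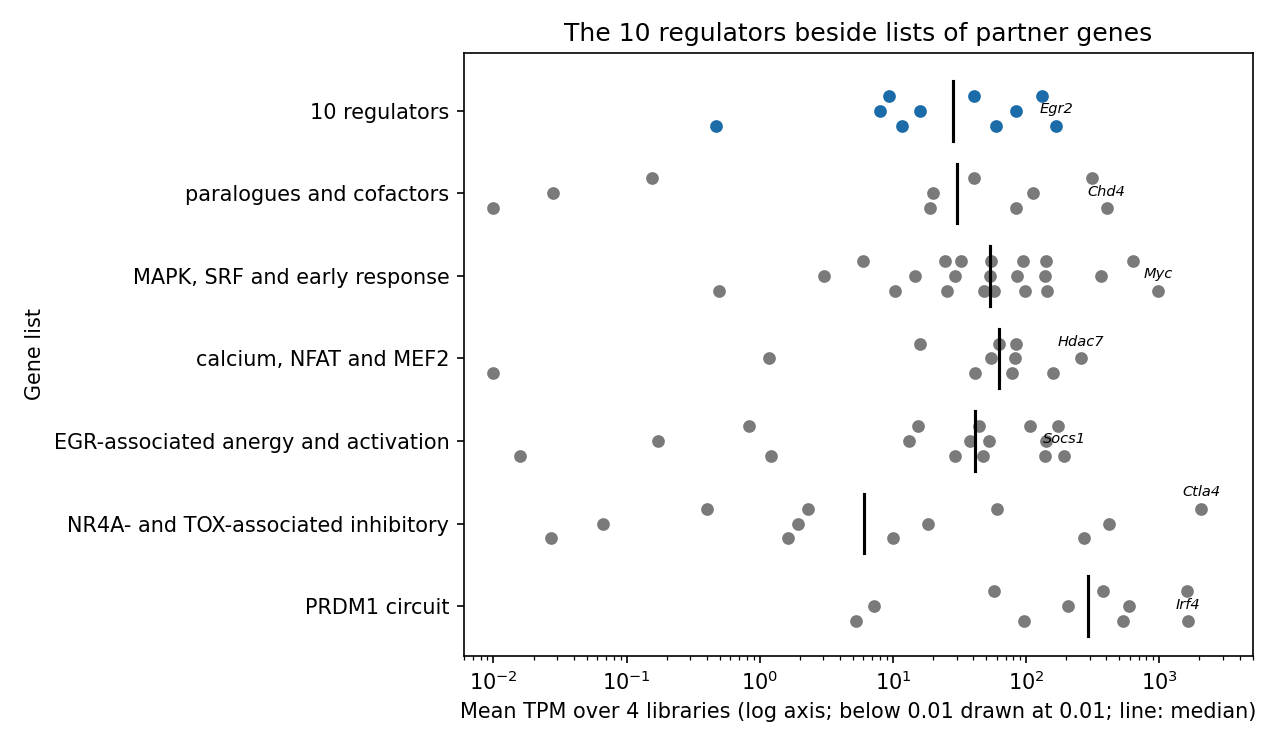
Mean TPM over 4 libraries (log axis) of the 10 regulators (blue, top) and of the genes in 6 lists of partners (grey); black lines are medians, the highest gene of each list is named, and means below 0.01 TPM are drawn at 0.01. The medians run from 6.10 TPM in the inhibitory list to 293 TPM in the Prdm1 circuit list, and the regulators' median is 28.2 TPM.

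Reads shared with other genes were looked for as 50-base words of a member's annotated transcripts that occur in transcripts of other genes on either strand. Egr1, Egr2, Egr3, Nr4a1, Nr4a2, Tox2 and Prdm1 shared none, and Nr4a3 shared 0.1504%. None of the EGR, NR4A or TOX members shared a word with its paralogues. Tox shared 2.83% and Nab2 34.9%, nearly all with the antisense genes Gm11802 and Gm16229 and, for Nab2, with Nemp1, which the strand separates.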

How the data were processed

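The authors deposited raw fragment counts per gene for 4 libraries of 1 group, made with featureCounts 1.4.6-p4 over exons of GENCODE M13, with both ends aligned and strand option 2 (reverse), per the file headers. The build is mm10 per the labels, and neither the labels nor the headers name the aligner's version. The recorded command sets no option to count fragments that align to several places or overlap several genes.

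Of 50600 genes, 50376 matched a symbol in GENCODE M21 with the identifier's version ignored. TPM was computed here from counts and the files' exon lengths, scaled to 1000000, and floors in the text stand for 3 fragments. Variability between replicates was tested in R 4.3.3 with glmQLFit of edgeR 4.0.16 (filterByExpr, TMM, a model of the mean alone, robust prior, legacy deviance). The ratio of a gene's quasi-dispersion to the trend gave an upper-tail F probability, with Benjamini-Hochberg adjustment over all genes tested. It was tested on simulated data. Alternatives used limma 3.58.1 and DESeq2 1.42.0 size factors. Promoter windows are from RefSeq.

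The members and the 6 lists were chosen with earlier results of these data known. Named genes are all members and cofactors, the 3 highest and the lowest of each other list, and listed genes called variable; a few that the rule names are not reported here. Levels, differences and motif matches were computed in Python 3.11.15 (scipy 1.17.1, numpy 2.4.6, pandas 2.3.3) and drawn with matplotlib 3.10.9.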

Additional observations from a re-analysis of the deposited data

Results flagged for a closer look

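Of 51 values set out per library, 4 had a single library far from the other 3 (the gap to its nearest neighbour over the whole range above Dixon's 95% critical value), where chance flags about 1 in 20. Nr4a1 was at 142 TPM in replicate 3, against 130, 128 and 129 TPM in replicates 1, 2 and 4. Prdm1 minus Bcl6 was -4.15 on the log2(TPM + 1) scale in replicate 1 and between -3.78 and -3.72 in the others. Chd4 was at 395 TPM in replicate 2 and between 402 and 404 TPM in the others. Nrgn was at 0.0631 TPM in replicate 4, which is 1 fragment, and at 0 in the others. A gene with fragments in a single library is flagged by construction, so the rate of 1 in 20 does not apply to Nrgn. In the test across all genes (edgeR, adjusted p), neither Nr4a1, Prdm1 nor Chd4 was called, and Nrgn was not tested.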

How the results depend on the processing

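The direction of the 10 within-library differences was the same with a pseudocount of 0.1, with TPM rescaled without mitochondrial and ribosomal genes and with each replicate left out (exact p = 0.25 at the least with 3 libraries). Without a length correction 9 kept it, and Tox2 minus Tox was -0.71 in place of 0.39. The rescaling moved every gene by 0.26 on the log2 scale. The count of members at 10 TPM was then 8 in place of 7, and with each replicate left out it stayed at 7. The share of all genes at 10 TPM was 15.3%, and 65.8% among genes with at least 10 fragments in every library, by construction.

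Members called variable numbered 0 under each alternative. Genes called variable numbered 36, against 94 with no filter, 17 without the robust prior, and between 15 (without replicate 4) and 37 (without replicate 3) with a replicate left out; the cause was not tested. With DESeq2 size factors they numbered 39 and by limma-trend 40. Fosl2 lost its call without the robust prior (adjusted p = 0.079, edgeR), without replicate 2 (0.996) and without replicate 4 (0.095). No paired comparison of conditions was possible because there is 1 group. Depth limits Prdm1 most, with 13 to 34 fragments a library.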
